A study of Rattus norvegicus with 12 samples.

Results

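The thioredoxin system was followed in whole rat pancreas through 6 genes: Txnip, Txn1, Txn2, Txnrd1, Txnrd2 and Txnl1. A probe set, a group of short probes that together give 1 reading on the array, was taken as a member when the platform annotation gave it one of these symbols. The rule found 9 probe sets among 15866 probe sets that are not controls, of which 12783 carried exactly 1 gene symbol and named 10411 genes in all. Txnl1 had 3 probe sets, Txnrd1 had 2, and the other 4 genes had 1 each. Of the 9 probe sets, 8 lay above the 25th percentile of brightness, and 1 probe set of Txnl1 lay below it.

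Total RNA of the pancreas of adult male Wistar rats was hybridized to 12 Affymetrix RAE230-A arrays in 4 groups of 3 arrays. The groups were healthy untreated rats (HU), healthy rats given sodium tungstate (HT), rats made diabetic with streptozotocin and left untreated (DU), and diabetic rats given sodium tungstate (DT). Streptozotocin is a toxin that destroys beta cells, and sodium tungstate is a salt that lowers blood glucose in diabetic animals. Tungstate was given at 0.7 g/L for 1 week and at 2 g/L for the next 4 to 5 weeks, in the DT group until glycemia approached the normal range, and the untreated groups ran for 5 to 6 weeks. Each array held a pool of 3 rats, so 9 rats stand behind each group and a p-value measures the spread between pools. DU against HU asks what the diabetic state goes with, DT against DU what treatment changes in diabetes, and HT against HU what tungstate does in healthy rats. All values are log2 intensities, on which 1 unit is a doubling, and a change is a difference of log2 values with its standard error (SE) or its 95% confidence interval. The level of 1 probe set cannot be set against the level of another.

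The arrays were alike as wholes, with correlations of 0.976 to 0.995 between them and medians of 6.63 to 6.70. Scanning took 6 days, and the chips were of 3 lots. No scan day held arrays of both DU and HU. A probe set was called changed at an adjusted p under 0.05 by limma, with the adjustment over all 15866 probe sets.

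Thioredoxins are small proteins that reduce disulphide bonds in other proteins and are returned to their reduced form by thioredoxin reductases with electrons from NADPH. Txn1 and Txnrd1 make up the cytosolic pair and Txn2 and Txnrd2 the mitochondrial pair. Txnip, the thioredoxin-interacting protein, is an alpha-arrestin that binds reduced thioredoxin and restrains glucose uptake. In beta cells its transcription is known to rise steeply with glucose through the carbohydrate response element binding protein, and a high level of Txnip promotes beta cell death. Txnl1 is a cytosolic thioredoxin-like protein associated with the proteasome.

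Promoters were looked up in RefSeq (build GRCr8) for both motifs tied to these regulators, on both strands of the 250 bases before each start. CACGTG is the E-box, whose paired form carbohydrate response elements are built from, and TGACNNNGC is the core of the antioxidant response element bound by Nrf2. The E-box lay in 5.59% of 33469 promoters and the antioxidant core in 10.1%. A promoter was found for 5 of the 6 genes, all except Txnip. None of these 5 held the E-box, and 1 of 5, a start of Txnrd1, held the antioxidant core. The other start of Txnrd1 held neither motif. In the list of alpha-arrestins and glucose-responsive genes a promoter was found for 11 of 15 genes, of which 3 (Arrdc4, Mlx and Pfkfb3) held the E-box and 2 (Arrdc4 and Mlx) the antioxidant core. A match is a description of letters and not of a bound site. The promoter at the matching start of Txnrd1 is printed as the only one of the system with a match. That of Arrdc4, the alpha-arrestin nearest to Txnip in kind, is printed because it held both motifs. Capitals mark the motifs, each read 5′ to 3′ on the strand of the gene, where GCTTTGTCA and GCCGTGTCA are antioxidant cores in reverse.
Txnrd1, chr7:22755905-22756154, minus strand, GRCr8: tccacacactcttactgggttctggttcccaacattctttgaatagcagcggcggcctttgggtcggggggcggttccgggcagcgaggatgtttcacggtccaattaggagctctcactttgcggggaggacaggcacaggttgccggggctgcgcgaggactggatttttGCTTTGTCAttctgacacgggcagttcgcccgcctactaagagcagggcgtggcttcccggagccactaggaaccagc
Arrdc4, chr1:131793426-131793675, minus strand, GRCr8: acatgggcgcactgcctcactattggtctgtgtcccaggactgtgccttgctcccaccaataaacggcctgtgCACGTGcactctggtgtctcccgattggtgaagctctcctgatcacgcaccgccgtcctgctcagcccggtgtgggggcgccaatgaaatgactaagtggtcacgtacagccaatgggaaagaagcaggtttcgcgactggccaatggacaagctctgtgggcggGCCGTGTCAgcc

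Txnip was higher in the untreated diabetic pancreas than in the other 3 groups. The gene, and with it the set, was chosen by this measured rise in DU and fall in DT, so its levels in DU and DT are given as a description without a test. In HU the 3 arrays read 9.51, 9.68 and 9.80, with a mean of 9.67 ± 0.15 (SD, n = 3). In DU they read 12.08, 12.45 and 12.19, with a mean of 12.24 ± 0.19. Every DU array lay above every HU array, and the 9 differences between a DU and an HU array ran from 2.28 to 2.94. Over all probe sets 29.4% did not overlap in this comparison and 3.2% were called. In DT the arrays read 10.12, 9.48 and 10.42, with a mean of 10.01 ± 0.48. All 3 DT arrays lay below all 3 DU arrays, the 9 differences running from -2.97 to -1.66, in a comparison where 13.9% of all probe sets did not overlap and 1.12% were called. Array DT2 lay just below the 3 HU arrays, while DT1 and DT3 lay above them. In HT the arrays read 9.71, 9.78 and 9.45, with a mean of 9.65 ± 0.17, and overlapped with HU.

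**Figure D1:**
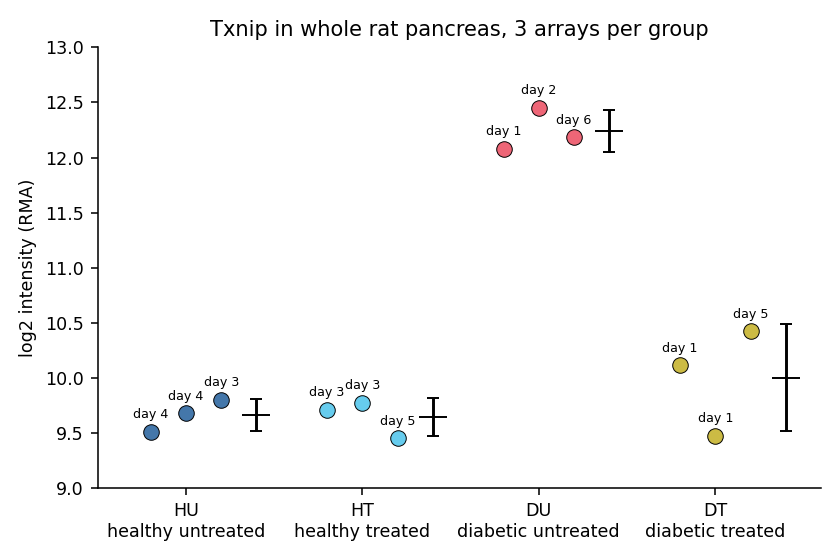
Log2 intensity of Txnip on each of the 12 arrays by group, with the scan day beside each point and the group mean ± SD (n = 3) as bars. The DU arrays sit between 12.08 and 12.45, above all other arrays, and the DT arrays spread from 9.48 to 10.42.

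The mean of Txnip was 2.57 higher in DU than in HU (SE 0.19), a 5.95-fold difference. In DT it was lower than in DU by 4.70-fold (a log2 difference of -2.23, SE 0.19). These 2 comparisons share the DU arrays. The mean of DT lay 0.34 above that of HU, with overlapping arrays. The SEs of these differences of means come from limma, with 1 estimate of the spread shared by the 4 groups. They do not give the spread within a group, which was wider in DT (SD 0.48). They are not a test, since the gene was chosen for these differences. The order of the group means was DU, DT, HU and HT, and of neighbours in this order DT and HU overlapped, as did HU and HT. In healthy rats the difference between HT and HU was -0.02 (interval -0.43 to 0.39, adjusted p = 0.989 by limma). In that comparison 0.0063% of all probe sets were called. The difference between the responses to tungstate in diabetic and in healthy rats was -2.21 and rests on the same DU and DT arrays.

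Within batches the directions of Txnip in DU were the same, which follows from groups of arrays that did not overlap. On scan day 1 the mean of DT1 and DT2 lay -2.28 from DU1. In chip lot 1 the DT arrays lay -2.47 from the DU arrays, and in chip lot 3 the single DT array lay -1.76 from the single DU array. In chip lot 1 the DU arrays lay 2.46 above the only HU array of the lot. With a block for the scan day DU against HU was 3.20, and DT against HU moved from 0.34 to 0.91. HU1, HU2, DU2 and DU3 shared no scan day with another group and dropped out of these estimates. DT and HU shared no scan day either. The 0.91 ran through DT3 against HT3 on day 5 (0.97) and HT1 and HT2 against HU3 on day 3 (-0.06). The 3.20 added DU1 against DT1 and DT2 on day 1. The same arrays carried these comparisons for every gene given with this block. Within chip lot 1 DT against HU was -0.01. With a block for the chip lot DU against HU was 2.60 and DT against HU was 0.37. How far DT stood above HU thus depended on how the scan days were treated.

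The pancreas is a mixture of cells, and in bulk RNA fewer cells of a type cannot be told apart from less RNA per cell. The mean level of 6 measured beta cell markers of 8 ran from 9.64 to 9.79 in HU, 9.53 to 9.82 in HT, 7.62 to 7.86 in DU and 7.86 to 8.65 in DT, and 4 of the 6 were called lower in DU than in HU. Ins2, which encodes insulin, read 8.26 to 8.84 in DU and 9.56 to 11.11 in DT against 13.26 to 13.43 in HU. Every DT array of Ins2 lay below every HU array. Of the acinar markers, 8 of 8 were measured and only Amy2a3, a pancreatic amylase, was called lower in DU. Amy2a3 read 6.45 to 8.78 in DU against 13.07 to 13.20 in HU and 12.70 to 13.17 in DT. The mean level of the acinar markers was 13.25 to 13.51 in DU and between 14.03 and 14.13 in the other groups. Amy2a3 carried most of this drop, at -5.18 in DU against HU, while the median change of the 8 markers was -0.06. The other 7 markers were among the brightest probe sets of every array, with a lowest percentile of 99.89 (Cela1). Whether probe sets so near the top of the scale could show a loss of acinar RNA was not tested. Markers of duct cells (4 of 6 measured), stellate cells and fibroblasts (7 of 7), leukocytes (7 of 7) and adipocytes (5 of 6) had no gene called in DU against HU, while 1 duct marker was called lower in DT than in DU and 2 stellate cell markers lower in DT than in HU. Their mean levels in DU were 7.22 to 7.31, 8.14 to 8.50, 7.27 to 7.74 and 6.92 to 7.08. In HU they were 7.02 to 7.17, 8.12 to 8.70, 7.15 to 7.94 and 6.85 to 7.37. In DT they were 7.05 to 7.35, 7.44 to 8.32, 6.70 to 7.79 and 6.64 to 6.94, and in HT 7.11 to 7.22, 7.99 to 8.42, 7.34 to 7.67 and 6.65 to 7.18. The part of cell makeup in the level of Txnip was not tested.

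The thioredoxins themselves, the proteins that Txnip binds, showed only small differences. Txn1, the cytosolic thioredoxin, read 11.08, 11.16 and 11.37 in HU and 11.03, 10.95 and 10.73 in DU. The DU arrays lay just below the HU arrays without overlap, by 0.29 on average, and this difference was not called (interval -0.55 to -0.04, adjusted p = 0.192 by limma). In DT Txn1 read 11.22, 10.82 and 11.23, overlapping with both DU and HU, at 0.18 from DU (adjusted p = 0.704). In HT it read 11.07, 11.05 and 11.01, all below HU, at -0.16 (adjusted p = 0.877). The highest DU array of Txn1 was within 0.05 of the lowest HU array. Txn2, the mitochondrial thioredoxin, stayed between 8.47 and 8.82 on all 12 arrays. Its group means differed by 0.12 at most, with DT the lowest and HU the highest (interval of DT against HU -0.30 to 0.06, adjusted p = 0.490), and the arrays of each compared pair of groups overlapped.

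The thioredoxin reductases, selenoproteins that recharge thioredoxin, were read by 3 probe sets. For Txnrd1, the cytosolic enzyme and a known Nrf2 target, the brighter probe set (1398791_at) read 8.20, 7.93 and 8.40 in HU and 8.42, 8.40 and 8.59 in DU. Its difference of 0.29 was not called (interval 0.03 to 0.55, adjusted p = 0.202), and DU2 and HU3 both read 8.40. In DT this probe set read 8.45, 8.19 and 8.45, and in HT 8.16, 8.20 and 8.39, both overlapping with HU. The other probe set of Txnrd1 (1386958_at) stayed between 6.21 and 6.43, and its difference of 0.07 between DU and HU had an interval of -0.10 to 0.23. The dimmer probe set thus gave no difference of the size seen in the brighter one.

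Txnrd2, the mitochondrial reductase, was even in 3 groups and scattered in DT. It read 6.79, 6.74 and 6.88 in HU, 6.77, 6.81 and 6.78 in HT, and 7.01, 7.02 and 6.81 in DU. In DT the arrays read 7.91, 7.14 and 6.68, so that DT1 was the highest of all 12 arrays and DT3 the lowest. DT against HU was 0.44 (interval -0.02 to 0.90, adjusted p = 0.320). Without DT3 the difference was 0.72 and was called (adjusted p = 0.0479), and without DT1 it was 0.11 (adjusted p = 0.720). Against DU the difference was 0.30 (adjusted p = 0.744), and without DT1 it was -0.04. In chip lot 1, DT1 and DT2 lay 0.51 above the DU arrays, and in chip lot 3 DT3 lay -0.13 from DU3.

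Txnl1 gave different answers by probe set. The probe set 1368936_at read 7.80, 7.64 and 8.02 in HU, 7.49, 7.83 and 7.98 in HT, 8.21, 8.07 and 8.25 in DU, and 8.15, 8.19 and 8.18 in DT. Both diabetic groups lay above every healthy array, by 0.36 in DU (interval 0.09 to 0.62, adjusted p = 0.130) and by 0.35 in DT (interval 0.09 to 0.62, adjusted p = 0.176) against HU, and neither was called. DT and DU differed by less than 0.01. The probe set 1380191_s_at pointed the other way, at -0.29 in DU against HU (interval -0.74 to 0.15, adjusted p = 0.457) with arrays of 9.07, 9.03 and 9.53 in HU and 9.21, 8.88 and 8.65 in DU. It read 9.14, 8.75 and 8.74 in DT and 9.12, 9.30 and 8.50 in HT, a spread that overlapped in each comparison. The third, 1391789_at, lay between 3.54 and 3.71, close to the lowest value of each array (3.44 to 3.51), so it carried little signal. No direction can be given for Txnl1 as a gene.

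**Figure D2:**
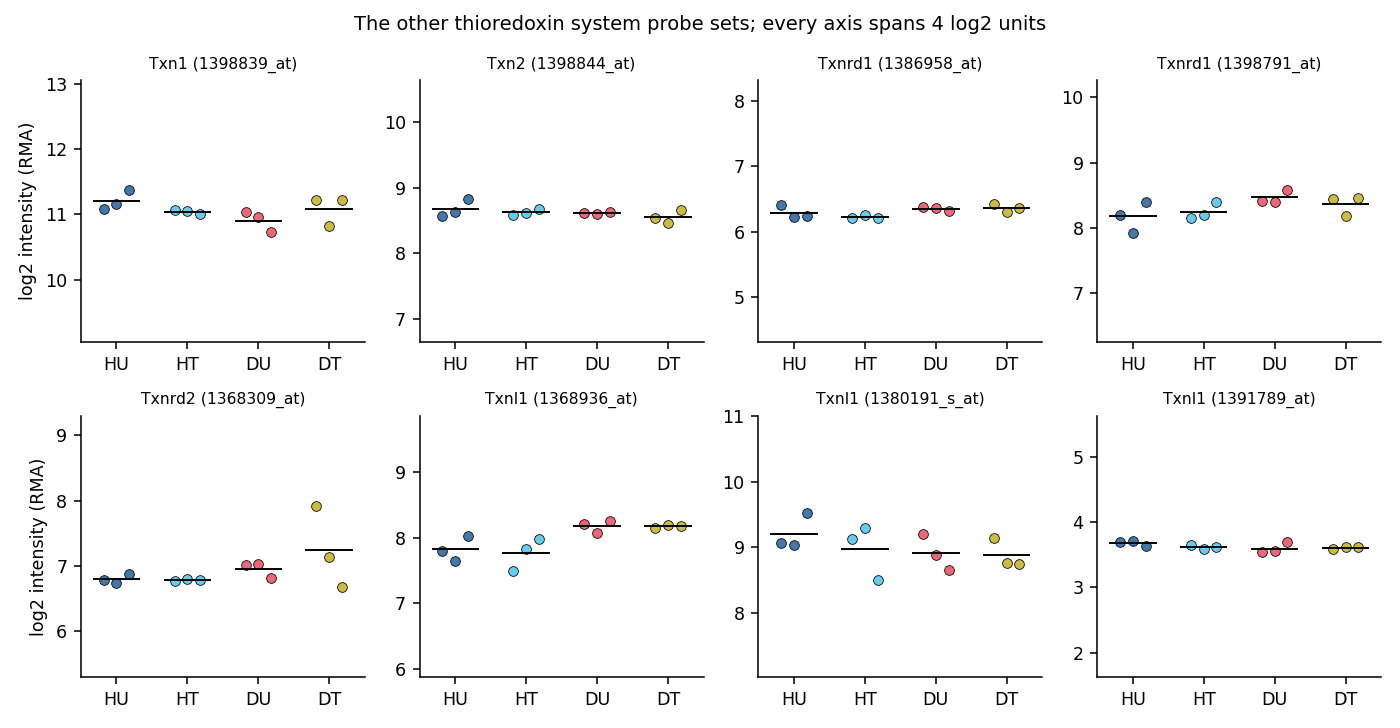
Log2 intensity of the 8 other probe sets on each array by group (points) with the group mean (line), each vertical axis spanning the same number of log2 units. None of them shows a step between DU and the other groups of the size seen for Txnip, which was chosen for its step. Txnrd2 is spread in DT from 6.68 to 7.91.

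Apart from Txnip, 0 of the 8 probe sets were called by limma in any comparison. Over all probe sets 3.2% were called in DU against HU (1.47% higher and 1.73% lower), 1.12% in DT against DU (0.655% and 0.46%), 1.32% in DT against HU (0.756% and 0.561%), 0.0063% in HT against HU and 0.422% in the interaction (0.271% and 0.151%). At an unadjusted p under 0.05 the count was 3 of 8 in DU against HU (20.2% of all probe sets), 1 of 8 in DT against HU (16.6%), and 0 of 8 in the other 3 comparisons (9.89% in DT against DU, 5.41% in HT against HU, 8.75% in the interaction). By a B-statistic above 0, the log odds used in the study's methods, the count was 0 of 8 in each, beside 1.82% of all probe sets in DU against HU, 1.05% in DT against DU, 1.18% in DT against HU, 0% in HT against HU and 0.58% in the interaction. Groups did not overlap for 2 of 8 in DU against HU (29.4% of all probe sets), 0 of 8 in DT against DU (13.9%), 2 of 8 in DT against HU (21.1%) and 1 of 8 in HT against HU (11.6%). The changes of the 8 ran from -0.29 to 0.36 in DU against HU and from -0.10 to 0.30 in DT against DU, with medians of 0.00 in both, beside -0.02 and 0.00 over all probe sets. The intervals left room for changes of up to 0.74 in DU against HU and up to 0.75 in DT against DU.

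**Figure D3:**
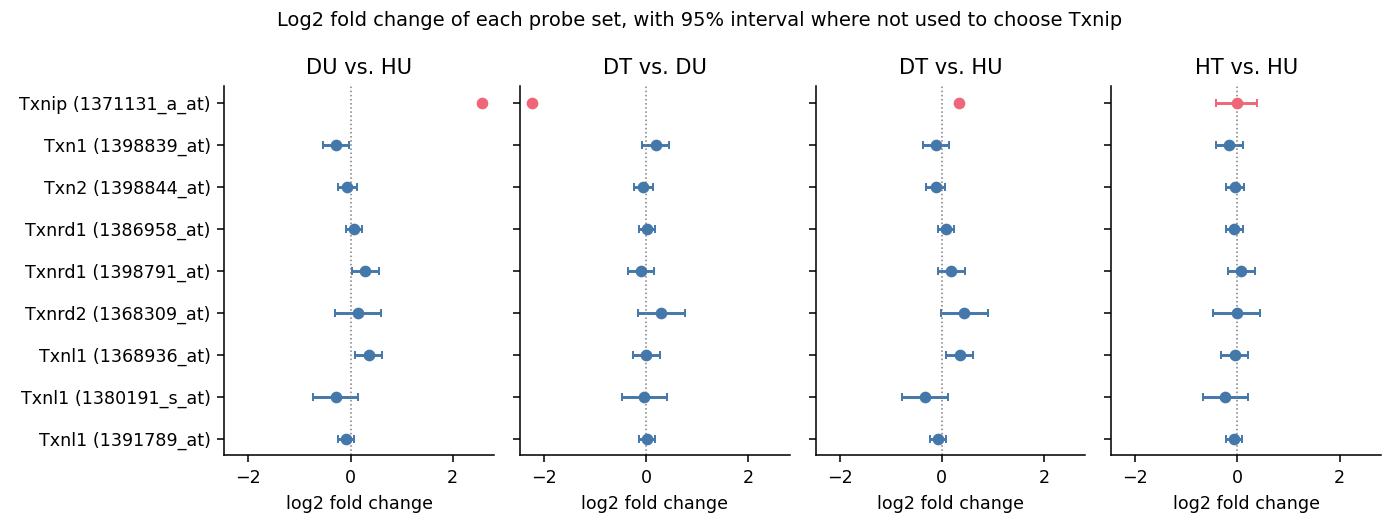
Log2 change of each of the 9 probe sets (points) in the 4 comparisons, Txnip in red and the others in blue, with 95% confidence intervals (bars) except for Txnip in the 3 comparisons that its choice used. Txnip, chosen for these changes, lies at 2.57 in DU against HU and at -2.23 in DT against DU. The other 8 lie between -0.33 and 0.44 in all 4 panels.

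Around the system, 7 lists held 70 further genes, of which 59 were measured by a probe set with 1 symbol, each gene by its brightest probe set. In DU against HU 5 of 59 were called (8.47%, against 3.2% of all probe sets): Glrx and Klf10 rose, and Pdia2, Erp44 and Msra fell. In DT against DU 1 of 59 was called (1.69%, against 1.12%), Klf10, which fell. In DT against HU, HT against HU and the interaction 0 were called by limma, with 9, 3 and 6 of 59 genes at an unadjusted p under 0.05 (against 16.6%, 5.41% and 8.75% of all probe sets) and 0 by the B-statistic. Second probe sets of 3 genes, looked at after their values were seen, were called as well: Glrx and Fasn in DU against HU, Glrx in DT against DU, and Pdia3 in DT against HU. The median change of the 59 genes was 0.02 in DU against HU and 0.02 in DT against DU.

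Glutaredoxins form the parallel system that runs on glutathione. All 5 measured genes of 5 in that list, glutathione reductase included, had a change above 0 in DU against HU by the brightest probe set (45.1% of all probe sets were above 0), with a median of 0.33 beside -0.02 over all probe sets, and 1 of 5 was called. Glrx, the cytosolic glutaredoxin, read 7.74, 7.99 and 7.85 in HU and 8.39, 8.35 and 8.36 in DU, a rise of 0.51 (1.42-fold, adjusted p = 0.0245). A second probe set of Glrx gave 0.48 (adjusted p = 0.00529). In DT the brighter one read 8.39, 7.93 and 8.15, at -0.21 from DU (adjusted p = 0.583), while the second one fell by 0.37 (adjusted p = 0.0445). The rise by the brighter probe set was not called without HU1 (adjusted p = 0.104), HU3 (0.0630), DU1 (0.0890), DU2 (0.0774) or DU3 (0.0604), nor with a block for the scan day (a change of 0.67, adjusted p = 0.625) or for the chip lot (0.56, adjusted p = 0.0820). Glrx2, the mitochondrial glutaredoxin, stood at 0.38 in DU against HU (adjusted p = 0.115) and at 0.49 in DT against HU (adjusted p = 0.0733), without a call, and its other probe set gave 0.01 (adjusted p = 0.960) and 0.12 (adjusted p = 0.484).

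Of the peroxiredoxins and sulfiredoxin, the peroxidases that thioredoxin recharges and the enzyme that repairs them, 6 of 7 were measured and 0 were called in any of the 5 comparisons, with 2 of 6 at an unadjusted p under 0.05 in DU against HU (20.2% of all probe sets), 2 of 6 in DT against DU (9.89%) and 0 in the other 3. Prdx3, the mitochondrial peroxiredoxin, had the highest value in DU against HU at 0.42 (adjusted p = 0.0714). Other thioredoxin-fold proteins (7 of 9 measured) and Nrf2 with its targets (7 of 9) also gave 0 calls, with 1 of 7 each at an unadjusted p under 0.05 in DU against HU, where 20.2% of all probe sets passed. Nfe2l2, which encodes Nrf2, read 6.84, 6.70 and 6.99 in HU, 7.53, 7.43 and 7.13 in DU and 7.04, 6.67 and 6.81 in DT. In HT it read 6.57, 6.78 and 6.16, at -0.34 from HU (adjusted p = 0.871 by limma). Its arrays in DU stood above those of HU and of DT, comparisons where 29.4% and 13.9% of all probe sets did not overlap. DU lay 0.52 from HU (adjusted p = 0.0848 by limma) and DT lay -0.52 from DU (adjusted p = 0.182), and neither was called.

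Among the oxidoreductases of the endoplasmic reticulum that carry thioredoxin folds, 17 of 17 were measured, and 2 fell and 0 rose in DU against HU, with a median of -0.09. Pdia3, a disulphide isomerase, gave -0.20 in DT against HU by its brightest probe set (adjusted p = 0.514) and fell by 0.51 by the other (adjusted p = 0.0452). Pdia2, the pancreas-specific protein disulphide isomerase, read 11.25, 11.27 and 11.35 in HU, 10.53, 10.38 and 10.47 in DU, and 11.07, 10.90 and 10.60 in DT. It fell by 0.83 in DU (1.78-fold lower, adjusted p = 0.000924), and DT stood between DU and HU, at 0.40 from DU (adjusted p = 0.146) and -0.43 from HU (adjusted p = 0.0727). With a block for the scan day the fall of Pdia2 was -1.42 (adjusted p = 0.0501). Erp44, which holds unassembled proteins back in the early secretory pathway, fell by 0.58 in DU (adjusted p = 0.0318) by 1 probe set, whereas its other probe set gave 0.10 (adjusted p = 0.628). The fall of Erp44 was not called without HU3 (adjusted p = 0.0781), DU1 (0.0957) or DU3 (0.0989), nor in a fit of only the 6 arrays compared (0.0609), and with a block for the scan day its value was -1.06 (0.205). Pdia2 is made by acinar cells, whose amylase Amy2a3 fell in the same DU arrays while the other 7 acinar markers were not called. These 7 lay near the top of the brightness scale, where a loss may not show. The part of acinar cell makeup in the fall of Pdia2 was not tested. Of the clients of thioredoxin 4 of 8 were measured and 1 was called, Msra, a methionine sulphoxide reductase, which fell by 0.69 in DU (adjusted p = 0.0319). Msra was not called without HU1 (adjusted p = 0.124), HU3 (0.0901), DU1 (0.0573) or DU2 (0.106), nor in a fit of only the 6 arrays compared (0.0557), nor with a block for the scan day (a change of -0.44, adjusted p = 0.785) or for the chip lot (-0.76, adjusted p = 0.0722).

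Of the alpha-arrestins and genes of glucose-responsive transcription, the relatives and fellow targets of Txnip, 13 of 15 were measured, 1 rose and 0 fell in DU against HU by the brightest probe set, and the list's median was 0.02. Fasn, the fatty acid synthase, had the lowest value of the list at -0.52 (adjusted p = 0.210), and its other probe set fell by 0.78 in DU against HU (adjusted p = 0.0331), opposite in direction to Txnip. That probe set of Fasn read 8.03, 7.62 and 8.42 in HU, 7.36, 7.14 and 7.23 in DU, and 7.97, 7.91 and 7.82 in DT, so that its DU arrays were the lowest and DT lay 0.66 above DU (adjusted p = 0.141). The gene that rose was Klf10, a Krüppel-like transcriptional repressor known as a glucose-induced gene in rodent liver cells. It read 7.72, 7.92 and 7.66 in HU, 8.61, 8.50 and 8.61 in DU, 7.40, 7.32 and 8.19 in DT, and 7.49, 7.74 and 7.30 in HT. As with Txnip, its 3 DU arrays stood above the other 9, with DT2 the lowest DT array and DT3 the highest. DT2 was the lowest DT array in 28.4% of all probe sets. Klf10 rose by 0.80 in DU (1.75-fold, adjusted p = 0.0331) and fell by 0.94 in DT against DU (1.91-fold lower, adjusted p = 0.0249). Leaving out any 1 of the 6 HU and DU arrays took the rise past the threshold (adjusted p = 0.0562 without HU2, 0.0823 without DU2, 0.0844 without DU3, 0.0950 without HU3, 0.107 without HU1 and 0.108 without DU1). The fall was lost without DU1 (0.107), DU2 (0.0726), DU3 (0.0844), DT1 (0.116) or DT2 (0.0987), and in a fit of only the 6 arrays compared (0.145). With a block for the scan day the rise was 2.09 and the fall was 1.25 in size, but HU1, HU2, DU2 and DU3 drop out of these values. The fall is then DT1 and DT2 against DU1 alone, and the rise reaches HU3 only through DT and HT arrays. Arrdc4, whose promoter held both motifs, read only 4.30 to 4.59 on the 12 arrays and differed by 0.01 between DU and HU (adjusted p = 0.947).

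**Figure D4:**
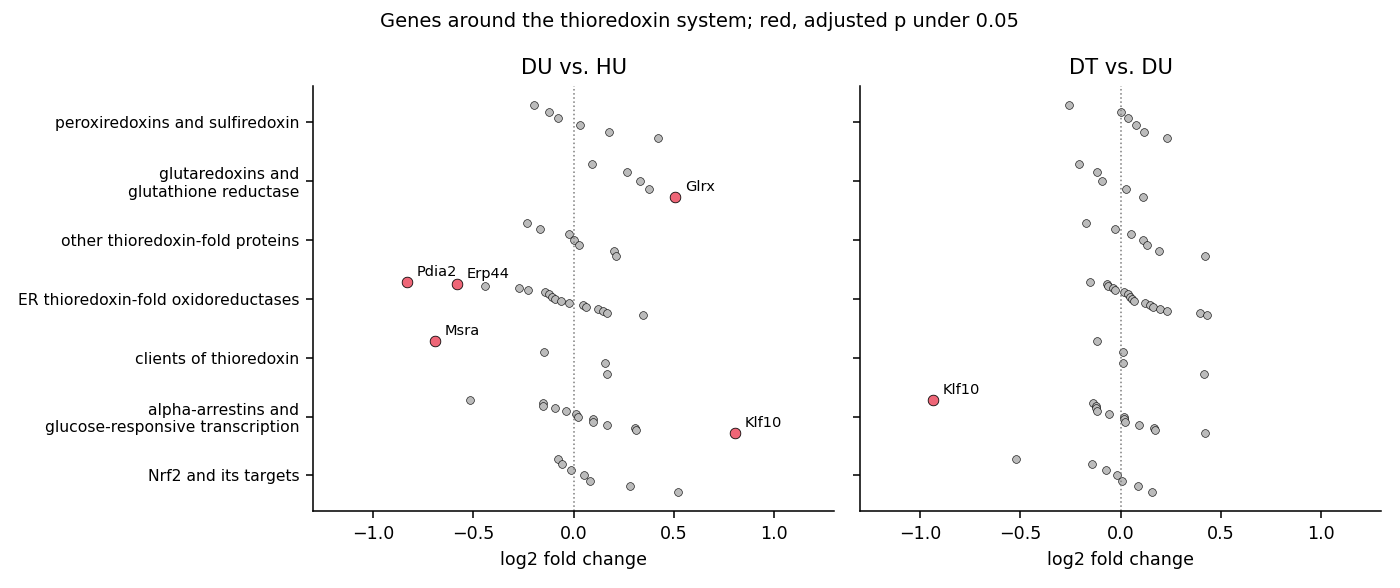
Log2 change of the 59 measured genes of the 7 lists, 1 point per gene, in DU against HU (left) and DT against DU (right), with red and a name for an adjusted p under 0.05. The 5 named genes on the left lie between -0.83 and 0.80, and Klf10 alone is named on the right.

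The genes with the pattern most like that of Txnip were sought over the 12 arrays. Likeness was the root mean square difference between the log2 values of 2 probe sets, each centred on its own mean, among 12782 other probe sets with 1 symbol, whose median distance from Txnip was 1.12. This measure picks genes that move by the same amount in the same arrays, so the values below are a description. The 8 nearest were Decr1 (0.234), Cbr1 (0.254), Ppcdc (0.301), Ech1 (0.344), Impa2 (0.370), Cpt1a (0.383), C8h15orf39 (0.439) and Acadl (0.440), and the ninth, Sin3b, lay at 0.503. The other probe sets of the thioredoxin system lay at 0.998 to 1.18, about the median of all. A profile without any change lies at 1.10 from Txnip, so a probe set that hardly moves falls near this value.

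Decr1, Ech1, Cpt1a and Acadl, 4 of the 8, encode enzymes of fatty acid oxidation. Decr1, an auxiliary enzyme for unsaturated fatty acids, read 7.79, 7.73 and 7.79 in HU, 10.70, 10.75 and 10.61 in DU, and 8.58, 7.90 and 8.55 in DT. Its arrays lay 7.54-fold higher in DU than in HU and 5.07-fold lower in DT than in DU. Cpt1a, which admits long-chain fatty acids to the mitochondrion, read 6.73, 6.90 and 6.68 in HU, 8.86, 9.18 and 9.08 in DU, and 8.06, 7.03 and 7.96 in DT. Unlike in Txnip, whose DT2 array lay below the HU arrays, all 3 DT arrays of Cpt1a lay above HU, as did those of Decr1, Cbr1 and Acadl. Acadl, a long-chain acyl-CoA dehydrogenase, ran from 8.21 to 8.48 in DU and from 6.71 to 6.78 in HU, and Ech1, an auxiliary enzyme of the enoyl-CoA hydratase family, ran from 10.50 to 10.70 and from 8.71 to 8.95. Cbr1, a carbonyl reductase, was 5.13-fold higher in DU than in HU and 4.44-fold lower in DT than in DU. Ppcdc, an enzyme of coenzyme A synthesis, was 5.85-fold higher and 6.31-fold lower in the same comparisons. Impa2, an inositol monophosphatase, was 3.42-fold higher and 3.23-fold lower. DT2 was the lowest DT array in all 8 of these genes and in Txnip, beside 28.4% of all probe sets. The choice of genes by likeness over the same arrays favours this.

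**Figure D5:**
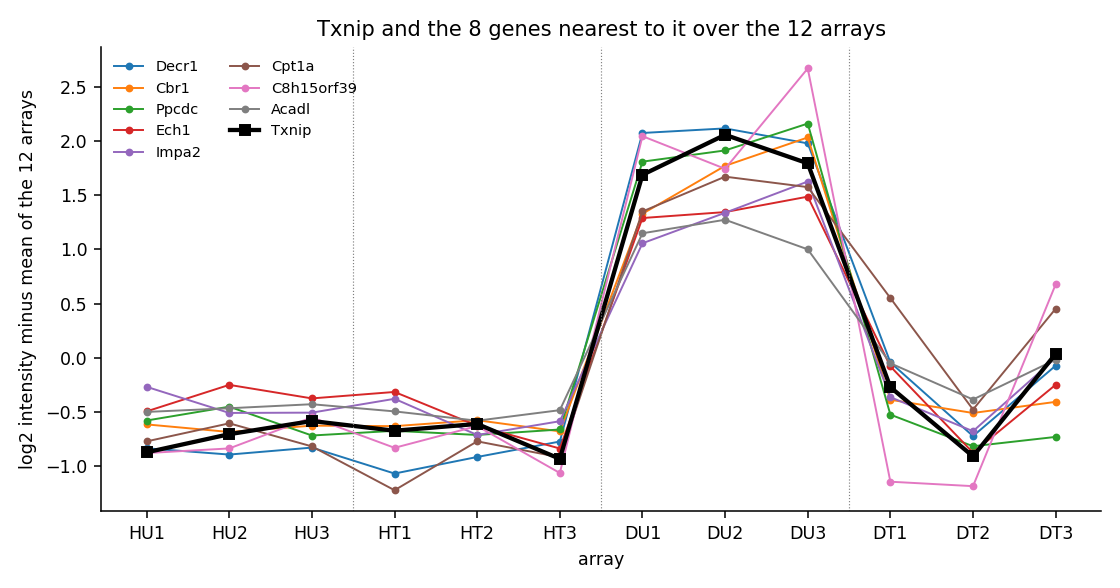
Log2 intensity minus the mean over the 12 arrays for Txnip (black squares) and the 8 nearest genes (coloured circles), with lines joining the arrays of each gene and dotted lines between the groups HU, HT, DU and DT. The 9 genes are high on the 3 DU arrays, and each has its lowest DT value on array DT2.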

How the data were processed

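Whole pancreas RNA was hybridized to 12 RAE230-A arrays (Affymetrix), 3 per group. The authors summarized the scans by RMA (affy, Bioconductor), and the deposited values are log2 intensities, used as they are. The version of affy was not given in the sources used here. Scan day and chip lot came from the array records. Group means were fitted with limma 3.58.1 (R 4.3.3) to all 15866 non-control probe sets, with Benjamini-Hochberg adjustment within each comparison, and was tested on simulated arrays. The number of arrays limits the precision. The members and the gene lists were chosen with earlier results of these data known, so no list is independent evidence. The genes named are the 6 members, the called genes and at most 4 with the smallest p of each list, Arrdc4, and the 8 genes nearest to Txnip. Probe sets with several symbols (312) or none (2771) were left unnamed. Promoters are RefSeq's, build GRCr8. Alternatives were a filter on dim probe sets, median centring, a further quantile normalization, limma with trend and robust, fitting only the 6 arrays compared, blocks for scan day, chip lot or replicate number, the B-statistic (prior proportion 0.01), the probe set with the smallest p, and leaving out each array.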

Additional observations from a re-analysis of the deposited data

How the results depend on the processing

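Txnip kept its direction in DU against HU and in DT against DU under every alternative run. The gene was chosen by these values and its arrays did not overlap, so leaving out 1 array could not reverse them. They are given as a description and not as a test. Leaving out 1 array at a time gave 2.47 to 2.65 in DU against HU, -2.44 to -1.97 in DT against DU, 0.13 to 0.60 in DT against HU, -0.09 to 0.08 in HT against HU and -2.42 to -1.95 for the interaction. With a block for the scan day the values were 3.20 in DU against HU and 0.91 in DT against HU. No scan day held HU with DU or DT, so both estimates run through other groups. HU1, HU2, DU2 and DU3 drop out of them, which leaves HU3 and DU1 as the only arrays of HU and DU. The count of 0 called among the 8 other probe sets was the same under each alternative, except that Txnrd2 was called in DT against HU without DT3 (range 0 to 1 over the arrays left out). Among the 59 genes of the wider lists, the 5 calls in DU against HU became 1 with a block for the scan day, 3 with one for the chip lot and 1 by the B-statistic, and 1 to 6 without 1 array. The fit of only the 6 arrays compared also called 5 genes in DU against HU, but not Erp44 and Msra. In DT against DU the single call became 3 with a chip lot block, 0 in the fit of only the 6 arrays compared and 2 with the probe set of smallest p, and 0 to 2 without 1 array. In DT against HU it became 1 with the probe set of smallest p and 0 to 1 without 1 array, and in the interaction 0 to 2. Over all probe sets the count in DU against HU was 34 with a scan day block and 236 with a chip lot block, against 507 without a block. The replicate numbers were taken as names that do not pair the arrays. Of 18 pairs of same-numbered arrays, 5 had deviations that correlated above 0.1 (range -0.29 to 0.31). Arrays of unlike number were not compared in this way, so a pairing was not tested. With the replicate block the values of Txnip were 2.57, -2.23, 0.34, -0.02 and -2.21, and the calls were 0 of the 8 probe sets in each comparison and 5, 1, 0, 0 and 0 of the wider genes.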
